A study of Mus musculus with 6 samples.

Results

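*Themis*, its relative *Themis2* and 6 genes for signalling proteins that act with them, *Grb2*, *Ptpn6*, *Ptpn11*, *Sos1*, *Vav1* and *Plcg1*, were followed in livers of mice labelled WT or *Themis*-KO. These 8 genes were chosen by name from the 25403 genes of the count table. Each was listed once, and all 8 were among the 14496 genes with enough counts to be tested.

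THEMIS is an adaptor of the T cell lineage that helps thymocytes to mature, above all along the CD4 lineage. It binds the adaptor GRB2 and the tyrosine phosphatases SHP1 (encoded by *Ptpn6*) and SHP2 (encoded by *Ptpn11*), which act downstream of antigen receptors. THEMIS2 is the related protein of B cells and macrophages. GRB2 brings the exchange factor SOS1 to RAS, VAV1 is an exchange factor of blood cells, and phospholipase C gamma 1 (*Plcg1*) makes the second messengers that raise calcium and activate protein kinase C.

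The 6 livers came from separate mice, 3 wild-type C57BL/6J mice (WT) and 3 mice with a whole-body knockout of *Themis* (*Themis*-KO). Both groups ate the same AMYLIN diet for metabolic dysfunction-associated steatohepatitis (MASH), in which fat gave 40% and fructose 20% of the calories and cholesterol made up 2%, for 3 months from an age of 10 to 12 weeks. There was no group on a chow diet. Which exons of *Themis* the knockout lacks is not given in the sources used here.

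The libraries held 20679642 to 25649767 counts. Hepatocyte markers were high in every liver, with summed levels of 73800 to 85300 CPM (counts per 1000000 counts of a library scaled by the trimmed mean of M-values, TMM) in the livers labelled WT and 68100 to 69800 CPM in those labelled *Themis*-KO. WT replicates 1 and 2 stood apart from the other 4 livers in the reads given to *mt-Nd3*, a mitochondrial gene. *Gm28438*, a predicted gene, held 96.6% and 96.8% of the summed counts of *Gm28438* and *mt-Nd3* in those 2 livers, against 2.2% to 3.26% in WT replicate 3 and the livers labelled *Themis*-KO. "Mitochondrial type" below refers to these 2 sets of livers. A fit with this type as a covariate compares WT replicate 3 alone with the livers labelled *Themis*-KO. A call lost in that fit therefore cannot be read as an effect of the type. Cell proportions were not measured in this whole-tissue RNA, so fewer cells of a type and less RNA per cell cannot be told apart.

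The targeted gene did not separate the labels. *Themis* (ENSMUSG00000049109; GRCm38, chr10:28668360-28883818, plus strand) measured 8.07, 25.6 and 12.0 CPM in WT replicates 1, 2 and 3, and 8.62, 7.74 and 9.96 CPM in *Themis*-KO replicates 1, 2 and 3. WT replicate 2 was highest, and WT replicate 1 fell between *Themis*-KO replicates 1 and 2, so the groups overlapped. Behind these levels were 176, 534 and 304 counts in the livers labelled WT, and 203, 180 and 211 counts in those labelled *Themis*-KO. Exact Poisson 95% intervals of the raw counts cover counting error only and are not scaled for library size. By these, WT replicate 2 (490 to 581 counts) stood clear of every other liver. WT replicate 3 (271 to 340 counts) lay above WT replicate 1 and the livers labelled *Themis*-KO. Its library was the largest (25649767 counts), so the raw intervals do not show that it stood clear in CPM. The interval of WT replicate 1 (151 to 204 counts) overlapped those of all 3 livers labelled *Themis*-KO, so its place among them is within counting error.

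The log2 fold change of *Themis*, *Themis*-KO minus WT, was -0.79 ± 0.38 (SE, n = 3 livers per group), with a 95% interval of -1.67 to 0.09 (adjusted p = 0.199 by the quasi-likelihood test of edgeR, with Benjamini-Hochberg adjustment over all tested genes). Without WT replicate 2 it was -0.20. The counts are summed over the whole gene and can include RNA from outside a deleted part, so they check neither the knockout nor the genotype labels. Groups are therefore named by their labels, and each direction below rests on those labels.

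*Themis* was also compared with the markers of T cells, the lineage in which it is best known. The summed level of 12 T cell markers was 5.45, 5.71 and 7.02 CPM in the livers labelled WT and 8.15, 4.6 and 6.32 CPM in those labelled *Themis*-KO. WT replicate 2, the liver with the highest *Themis*, did not have the highest T cell sum. None of the 12 markers was at 0 in all livers, and 7 had enough counts to be tested.

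Per kb of merged exons, *Themis* stood at 0.69 to 2.19 CPM per kb in the livers labelled WT. That level exceeded those of all 12 T cell markers in each of those 3 livers. In the livers labelled *Themis*-KO it stood at 0.66 to 0.85 CPM per kb, above all 12 markers in replicates 2 and 3. In *Themis*-KO replicate 1 only *Trbc2*, a constant segment of the T cell receptor beta chain, was higher (0.92 against 0.74 CPM per kb). The part of T cells, hepatocytes or any other cell type in the *Themis* signal was not tested.

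Of the 7 T cell markers tested, 1 fell and none rose, by edgeR or DESeq2 or at an unadjusted p under 0.05. Of all genes tested, edgeR called 9.11% at the adjusted threshold (4.14% as lower) and DESeq2 16.3% (7.52% as lower). By edgeR, 30.7% had an unadjusted p under 0.05. The log2 fold change was positive in 5 of the 7 and negative in 2, with a median of 0.13. *Cd8a*, the co-receptor of cytotoxic T cells, had the value 1.38 with overlapping groups (adjusted p = 0.167, edgeR). *Cd4*, the co-receptor of helper T cells, measured 2.02, 1.06 and 1.81 CPM in the livers labelled WT and 0.59, 0.52 and 0.66 CPM in those labelled *Themis*-KO. Every liver labelled WT exceeded every liver labelled *Themis*-KO. This was a log2 fold change of -1.46 ± 0.32 (SE) on 12 to 46 counts per liver (adjusted p = 0.0386, edgeR). The call held in 1 of the 6 fits that left out a single liver, and *Cd4* was singled out after its values were seen.

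**Figure D1:**
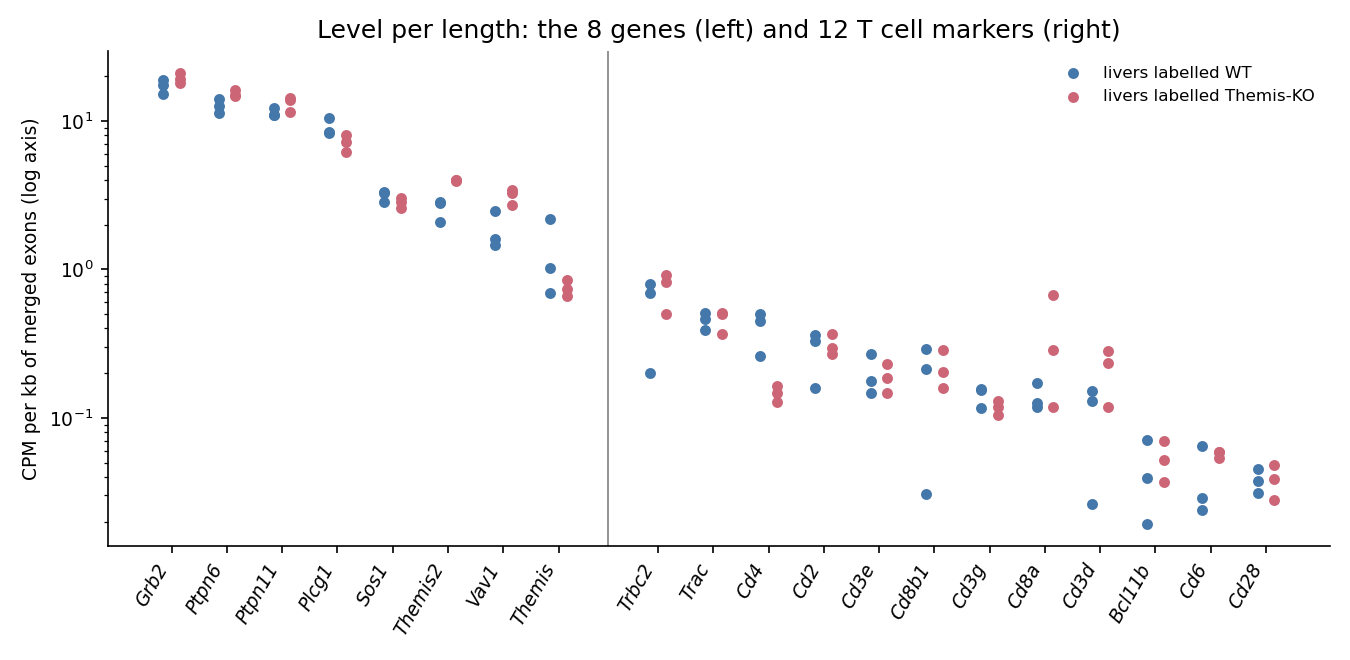
CPM per kb of merged exon length (log axis) of the 8 genes (left of the line) and of 12 T cell markers (right of the line); each point is 1 liver, blue for WT and red for *Themis*-KO labels. *Grb2* has the highest level of the 8 genes and *Themis* the lowest mean, and *Themis* lies above nearly all of the T cell marker points.

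*Themis2* (ENSMUSG00000037731; GRCm38, chr4:132781843-132796387, minus strand) was higher in the livers labelled *Themis*-KO. It measured 6.42, 8.73 and 8.67 CPM in WT replicates 1, 2 and 3, and 12.3, 12.1 and 12.3 CPM in *Themis*-KO replicates 1, 2 and 3. The groups did not overlap, with an SD of 0.128 CPM among the livers labelled *Themis*-KO and 1.32 CPM among those labelled WT. The *Themis*-KO levels rest on 289, 281 and 261 counts, with exact Poisson 95% intervals of 257 to 324, 249 to 316 and 230 to 295. Their SD is smaller than this counting error, so it does not measure how alike the 3 livers are. The fold was 1.54 with a 95% interval of 1.22 to 1.94 (log2 fold change 0.62 ± 0.14, SE, n = 3 per group; adjusted p = 0.0416, edgeR).

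*Themis2* was the only 1 of the 8 genes past the threshold of 0.05, and none of the 8 was called lower. In the same fit, 9.11% of all tested genes were called, 4.97% as higher and 4.14% as lower, so 1 call among 8 genes is near that background. The call of *Themis2* was close to the threshold. Without *Themis*-KO replicate 3 it remained (adjusted p = 0.0289), and without any 1 of the other 5 livers the adjusted p was 0.0609 to 0.139. With the mitochondrial type of the livers as a covariate, an alternative chosen after seeing the data, the log2 fold change was 0.49 (adjusted p = 0.486). That fit compares WT replicate 3 alone with the livers labelled *Themis*-KO, so it cannot decide the call. WT replicate 3, which shares the mitochondrial type of the livers labelled *Themis*-KO, had 8.67 CPM, below the lowest of them.

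Within a liver, the log2 ratio of *Themis2* to *Themis* needs no scaling between libraries. It was -0.33, -1.55 and -0.47 in the livers labelled WT and 0.51, 0.64 and 0.31 in those labelled *Themis*-KO. *Themis* thus had the higher CPM in each liver labelled WT and *Themis2* in each labelled *Themis*-KO, although CPM of 2 genes of different length do not compare their molecules. The means differed by 1.27 on the log2 scale (exact two-sided permutation p = 0.1, the smallest possible with 3 against 3; 0.15 after adjustment over the 3 ratios compared).

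**Figure D2:**
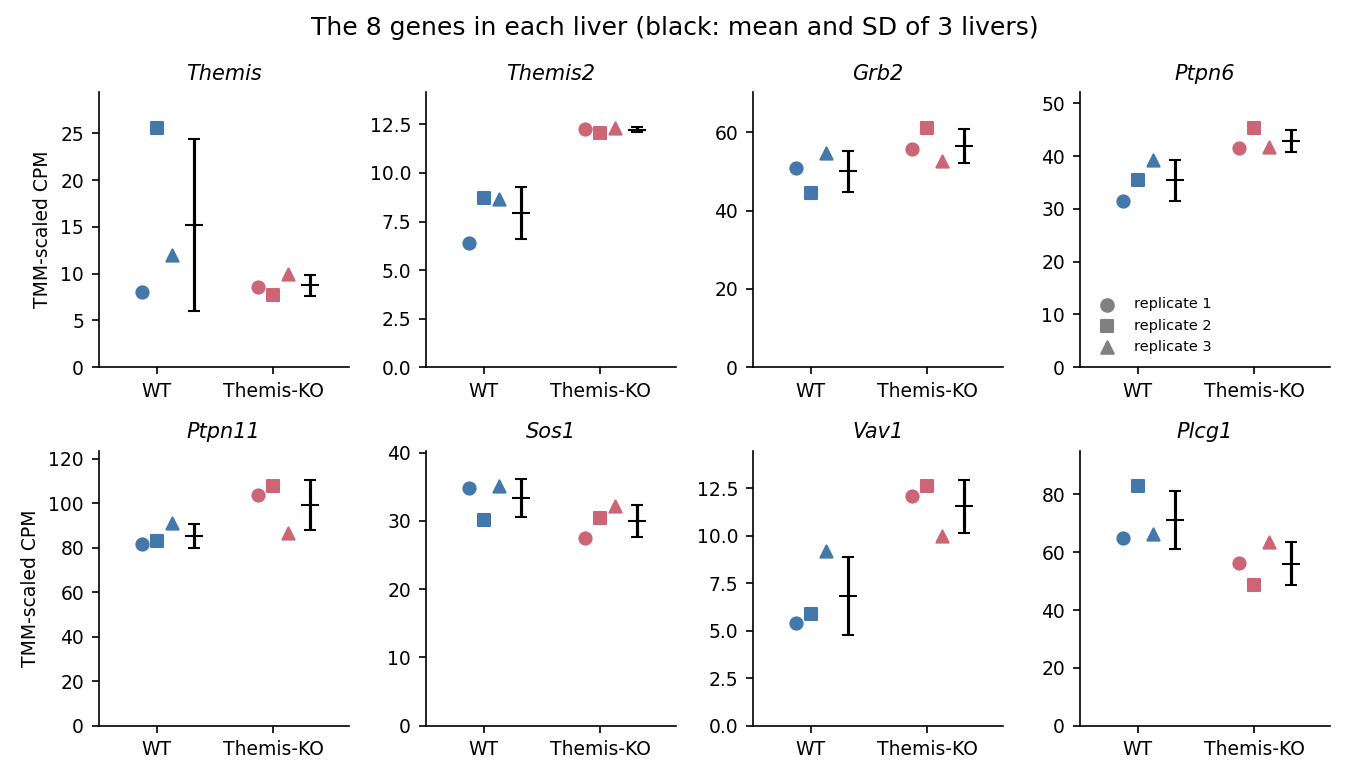
TMM-scaled CPM of each of the 8 genes (y axes, each from 0) in the 3 livers labelled WT (blue) and the 3 labelled *Themis*-KO (red), with the marker shape giving the replicate and the black bars the mean and SD. *Themis* overlaps between the groups with WT replicate 2 at 25.6 CPM, while *Themis2*, *Ptpn6* and *Vav1* are higher in every liver labelled *Themis*-KO and *Plcg1* is lower.

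The GRB2 adaptor and the exchange factor it carries did not pass the test. *Grb2* (ENSMUSG00000059923; chr11:115644045-115708597, minus strand) measured 51.0, 44.5 and 54.8 CPM in the livers labelled WT and 55.7, 61.2 and 52.7 CPM in those labelled *Themis*-KO. WT replicate 3 lay above *Themis*-KO replicate 3, so the groups overlapped, and the fold was 1.13 with a 95% interval of 0.954 to 1.33 (adjusted p = 0.293, edgeR). *Sos1* (ENSMUSG00000024241; chr17:80393751-80480453, minus strand) measured 34.9, 30.1 and 35.1 CPM in the livers labelled WT and 27.4, 30.4 and 32.2 CPM in those labelled *Themis*-KO. The groups overlapped here too, with a fold of 0.9 and a 95% interval of 0.764 to 1.06 (adjusted p = 0.338, edgeR).

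The phosphatases both had means above WT in the livers labelled *Themis*-KO, without passing the threshold. *Ptpn6* (ENSMUSG00000004266; chr6:124720707-124738714, minus strand), whose product SHP1 is a phosphatase of blood cells and is also made in epithelia, measured 31.5, 35.5 and 39.3 CPM in the livers labelled WT and 41.5, 45.3 and 41.7 CPM in those labelled *Themis*-KO. Its groups did not overlap, and WT replicate 3 came nearest to the other group. The log2 fold change was 0.27 with a 95% interval of 0.04 to 0.51 (adjusted p = 0.118, edgeR).

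*Ptpn11* (ENSMUSG00000043733; chr5:121130533-121191397, minus strand), whose product SHP2 is found in most cells and promotes RAS signalling, measured 81.6, 82.9 and 91.3 CPM in the livers labelled WT and 104, 108 and 86.5 CPM in those labelled *Themis*-KO. *Themis*-KO replicate 3 fell below WT replicate 3, so the groups overlapped. The log2 fold change was 0.22 with a 95% interval of -0.02 to 0.46 (adjusted p = 0.195, edgeR), and without *Themis*-KO replicate 3 it was 0.29 (adjusted p = 0.0378). The log2 ratio of *Ptpn6* to *Ptpn11* was -1.37, -1.22 and -1.22 in the livers labelled WT and -1.32, -1.25 and -1.05 in those labelled *Themis*-KO, a difference of 0.06 with overlapping groups (exact two-sided permutation p = 0.6). The balance of the 2 phosphatase transcripts thus differed by less than the spread between livers.

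*Vav1* (ENSMUSG00000034116; chr17:57279100-57328031, plus strand) had the largest positive change of the 8 genes. It measured 5.41, 5.90 and 9.19 CPM in the livers labelled WT and 12.1, 12.6 and 9.96 CPM in those labelled *Themis*-KO. The groups did not overlap, but WT replicate 3 and *Themis*-KO replicate 3 lay close together. The log2 fold change was 0.75 ± 0.22 (SE) with a 95% interval of 0.25 to 1.25 (adjusted p = 0.0651, edgeR). *Vav1* passed the threshold when WT replicate 3 (adjusted p = 0.0260) or *Themis*-KO replicate 3 (0.0301) was left out, and also with DESeq2 (0.0150), which called 16.3% of all tested genes, 8.82% as higher and 7.52% as lower.

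Relative to *Grb2* in the same liver, the log2 ratio of *Vav1* was -3.24, -2.92 and -2.58 in the livers labelled WT and -2.21, -2.28 and -2.40 in those labelled *Themis*-KO. The means differed by 0.61 with no overlap (exact two-sided permutation p = 0.1, the smallest possible, and 0.15 after adjustment over 3 ratios).

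*Plcg1* (ENSMUSG00000016933; chr2:160731300-160775760, plus strand) went the other way. It measured 64.8, 82.8 and 66.2 CPM in the livers labelled WT and 56.3, 48.5 and 63.4 CPM in those labelled *Themis*-KO. Every liver labelled WT lay above every liver labelled *Themis*-KO, and the log2 fold change was -0.35 with a 95% interval of -0.66 to -0.04 (adjusted p = 0.130, edgeR). Without *Themis*-KO replicate 3 it was -0.46 (adjusted p = 0.0359). *Plcg1* overlaps *Zhx3*, a coding gene on the opposite strand with up to 1463 counts in a liver, and whether the counting used strand is not given in the sources used here. *Zhx3* itself had a log2 fold change of -0.02 (adjusted p = 0.919, edgeR). For the other 7 genes, the overlapping genes in the table had at most 3 counts in any liver.

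Among the 8 genes, 4 had groups that did not overlap, *Themis2*, *Ptpn6* and *Vav1* as higher and *Plcg1* as lower. The groups did not overlap in 34.6% of all tested genes, 17.7% as higher and 16.9% as lower. The same 4 genes had an unadjusted p under 0.05 by edgeR's quasi-likelihood test, as did 30.7% of all tested genes. The median log2 fold change was 0.20 over the 8 genes and 0.01 over all tested genes.

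**Figure D3:**
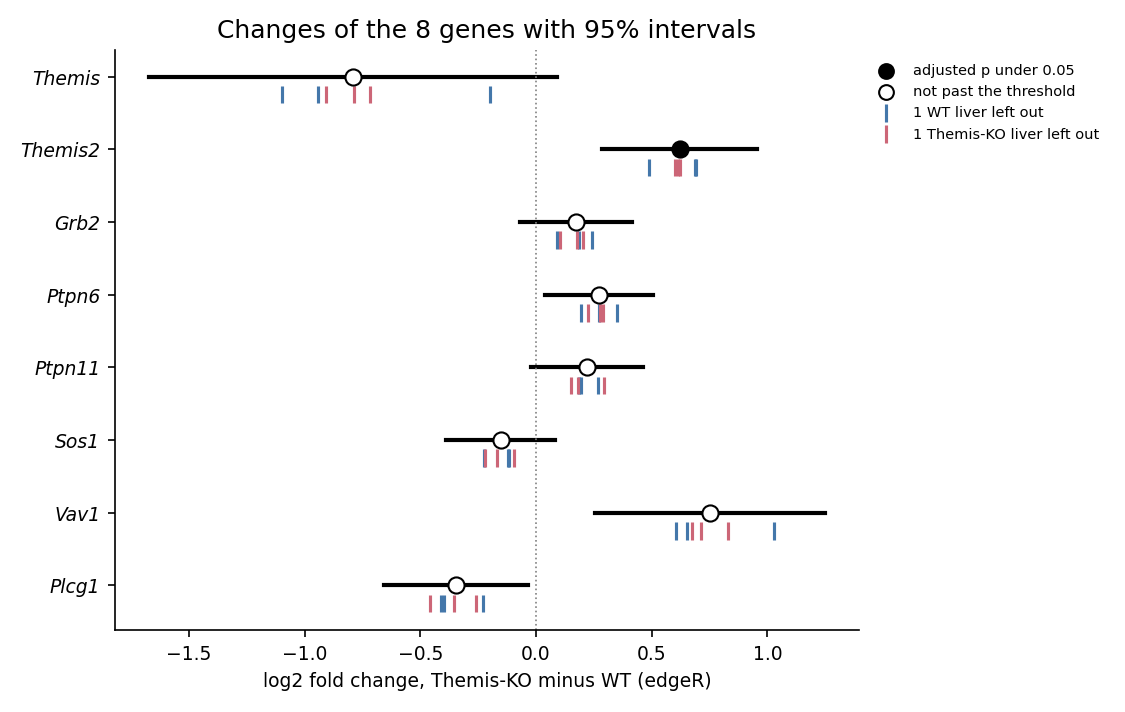
Log2 fold change, *Themis*-KO minus WT, of the 8 genes (circles, filled where the adjusted p is under 0.05) with 95% intervals (lines), and the estimates with 1 liver left out (ticks below, blue for a WT and red for a *Themis*-KO liver). Only *Themis2* is filled, and *Themis* has the widest interval, from -1.67 to 0.09, with 1 tick at -0.20 for the fit without WT replicate 2.

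Per kb of merged exons, the 8 genes fell into a high and a low set. In the livers labelled WT, *Grb2* was highest at 17.2 ± 1.80 CPM per kb (SD, n = 3), followed by *Ptpn6* at 12.65 ± 1.39, *Ptpn11* at 11.4 ± 0.701 and *Plcg1* at 9.07 ± 1.27. *Ptpn6* and *Ptpn11* differed by less than the SD of *Ptpn6*. *Sos1* followed at 3.15 ± 0.267, *Themis2* at 2.58 ± 0.428, *Vav1* at 1.85 ± 0.557 and *Themis* at 1.303 ± 0.788 CPM per kb. *Vav1* and *Themis* differed by less than the SD of either.

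In the livers labelled *Themis*-KO, the first 4 places were held by the same genes, with *Grb2* at 19.4 ± 1.47, *Ptpn6* at 15.3 ± 0.768, *Ptpn11* at 13.25 ± 1.495 and *Plcg1* at 7.14 ± 0.945 CPM per kb. *Themis2* came next at 3.97 ± 0.0411, then *Vav1* at 3.13 ± 0.378, *Sos1* at 2.83 ± 0.226 and *Themis* at 0.751 ± 0.0957 CPM per kb. *Vav1* and *Sos1* differed by less than the SD of *Vav1*. The place of *Themis* depends on its length: its merged exons span 11682 bases, but its longest coding transcript has 5082, and with that length it came sixth of 8 in the livers labelled WT (2.99 CPM per kb) and stayed last in those labelled *Themis*-KO (1.73).

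*Themis2*, *Ptpn6* and *Vav1* varied together over the 6 livers, with Pearson's r of log2 CPM of 0.955 for *Ptpn6* and *Vav1*, 0.927 for *Themis2* and *Ptpn6* and 0.884 for *Themis2* and *Vav1*. These are descriptions over 6 livers that share the 2 groups, and *Themis* with *Themis2* had r = -0.215. The promoters of the 3 genes are shown because they are the ones that were higher in every liver labelled *Themis*-KO. Each sequence holds the 250 bases before the RefSeq gene start on GRCm38.p6, read 5′ to 3′ on the gene's strand, with matches to 5 short motifs in capitals: the PU.1-type ETS core GAGGAAGT, the shorter ETS core AGGAAGT that it contains, the RUNX motif TGTGGTT, the GATA motif AGATAA and the GC box GGGCGG, each searched on both strands.
*Themis2* (chr4:132796365-132796614, minus strand): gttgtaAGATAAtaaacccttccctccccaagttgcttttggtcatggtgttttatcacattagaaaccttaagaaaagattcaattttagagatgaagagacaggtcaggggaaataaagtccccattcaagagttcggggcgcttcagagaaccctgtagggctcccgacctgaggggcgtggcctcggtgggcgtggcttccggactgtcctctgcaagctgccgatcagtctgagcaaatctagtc
*Vav1* (chr17:57278850-57279099, plus strand): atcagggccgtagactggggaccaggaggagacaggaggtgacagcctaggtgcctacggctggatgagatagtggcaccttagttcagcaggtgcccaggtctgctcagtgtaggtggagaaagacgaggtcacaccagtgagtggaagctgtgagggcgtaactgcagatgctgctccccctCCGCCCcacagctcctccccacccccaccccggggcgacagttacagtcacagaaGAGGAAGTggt
*Ptpn6* (chr6:124738710-124738959, minus strand): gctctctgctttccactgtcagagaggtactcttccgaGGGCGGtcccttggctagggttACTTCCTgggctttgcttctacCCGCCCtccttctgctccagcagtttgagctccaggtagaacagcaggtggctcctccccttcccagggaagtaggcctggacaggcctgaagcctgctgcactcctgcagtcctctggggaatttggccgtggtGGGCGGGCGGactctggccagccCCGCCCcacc

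No motif of this set was in all 3 promoters. The *Vav1* window held GAGGAAGT beginning 11 bases before the start, and a GC box on the reverse strand. GAGGAAGT occurred in 2.44% of the 32851 RefSeq promoter windows of this length, and within the 8 genes also in 1 of the 2 windows of *Grb2*. *Ptpn6* held AGGAAGT on the reverse strand (7.69% of all windows) and 5 GC boxes, 2 of which overlap (32.7% of all windows hold at least 1), and *Themis2* held AGATAA alone (9.99%). None of the 10 windows of the 8 genes held TGTGGTT, found in 4.4% of all windows, and both windows of *Themis* held none of the 5 motifs. A match in these letters describes the window and is not evidence of a bound site. Of the 11 annotated transcripts of *Ptpn6*, only Ptpn6-203 holds the start used for its window, so other starts may lie elsewhere.

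Markers of several other cell types, though not of T or B cells, moved with the same 3 genes. The summed level of 13 macrophage and monocyte markers was 474, 477 and 758 CPM in the livers labelled WT and 795, 953 and 743 CPM in those labelled *Themis*-KO. The sum of WT replicate 3 exceeded that of *Themis*-KO replicate 3, so the groups overlapped. Of the 13 markers, 3 were called higher, against 4.97% of all tested genes. They were *Cd68*, *Mpeg1* and *Ccr2*, with log2 fold changes of 1.06, 0.50 and 1.14. The log2 fold change was positive in 11 markers and negative in 2, *Marco* (-1.29) and *Timd4* (-0.63), neither of them called. *Marco* measured 52.9 CPM in WT replicate 3 and 6.70 to 15.4 CPM in every other liver. Over the 6 livers, Pearson's r with this sum was 0.976 for *Vav1*, 0.944 for *Ptpn6*, 0.80 for *Themis2* and -0.533 for *Themis*. Macrophage markers were not the only ones: with the sum of hepatic stellate cell markers r was 0.964 for *Themis2*, 0.931 for *Vav1* and 0.915 for *Ptpn6*. *Themis2* also had r = 0.91 with cholangiocyte, 0.898 with natural killer cell, 0.838 with endothelial and -0.96 with hepatocyte markers, so these sums cannot be told apart over 6 livers. With T cell markers r was 0.196 for *Themis2*, 0.227 for *Vav1* and 0.07 for *Ptpn6*. With B cell markers it was 0.0449, -0.317 and -0.21, in that order.

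The level of *Ptprc*, the CD45 phosphatase of all white blood cells, was 14.02, 13.9 and 23.1 CPM in the livers labelled WT and 26.9, 29.2 and 23.7 CPM in those labelled *Themis*-KO (adjusted p = 0.0830, edgeR). Like *Vav1*, it did not overlap between the groups, with WT replicate 3 and *Themis*-KO replicate 3 nearest to each other. *Themis2* had a lower r with the macrophage sum (0.80) than *Vav1* (0.976) or *Ptpn6* (0.944). WT replicate 3, with 758 CPM of macrophage markers, had 8.67 CPM of *Themis2*, while *Themis*-KO replicate 3, with 743 CPM, had 12.3 CPM. *Marco* alone gave 52.9 CPM of the former sum and 6.70 CPM of the latter, so the order of these sums rests on *Marco*.

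Other marker sums were compared between the labels as well. Hepatic stellate cell markers summed to 334 to 381 CPM in the livers labelled WT and 466 to 471 CPM in those labelled *Themis*-KO. Cholangiocyte markers summed to 167 to 207 against 398 to 628 CPM. Neutrophil markers summed to 5.66 to 10.2 against 7.88 to 24.0 CPM and overlapped, with WT replicate 3 above *Themis*-KO replicate 3. B cell markers, the other lineage of *Themis2*, summed to 4.03 to 8.15 CPM and 2.92 to 7.13 CPM and overlapped. Natural killer cell markers summed to 1.6 to 3.51 and 3.52 to 4.16 CPM, and endothelial markers to 220 to 240 and 245 to 274 CPM. Of 7 endothelial markers, 1 was called, *Lyve1*, against 9.11% of all tested genes. It measured 13.9 to 17.9 and 26.3 to 30.4 CPM, and the endothelial sums stand apart only with *Lyve1* included. The log2 fold change was positive in 5 of the 7 and negative in 2. Most of the cholangiocyte sum came from *Spp1*, at 137 to 180 and 366 to 570 CPM. No gene of any of these lists was at 0 in all livers, and the part of these cells in the values of *Themis2*, *Vav1* and *Ptpn6* was not tested.

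**Figure D4:**
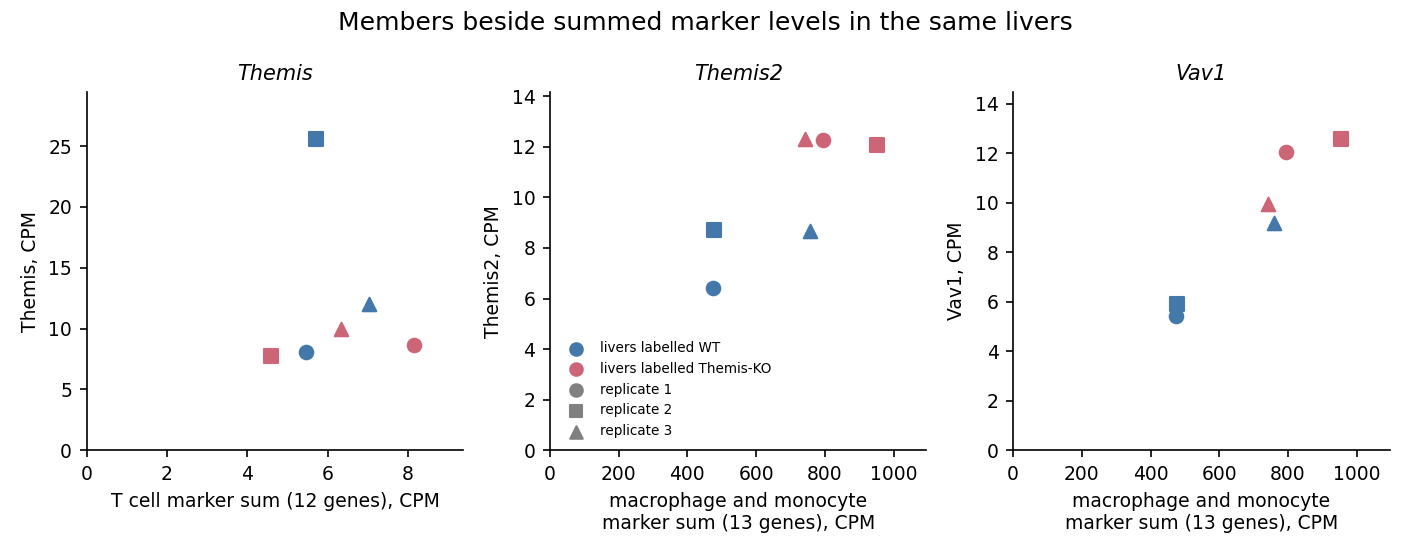
CPM of *Themis*, *Themis2* and *Vav1* (y axes) against the summed CPM of 12 T cell markers (left) or 13 macrophage and monocyte markers (middle and right), 1 point per liver, blue for WT and red for *Themis*-KO, with the shape giving the replicate. WT replicate 2 has the highest *Themis* at a T cell sum of 5.71 CPM, and WT replicate 3 lies beside *Themis*-KO replicate 3 for *Vav1* but below it for *Themis2*.

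The close relatives of the 8 genes were measured next. Of the 6 that were tested, none passed the threshold by edgeR's quasi-likelihood test, 1 had an unadjusted p under 0.05, and 1 was called by DESeq2. The shares of all tested genes were 9.11%, 30.7% and 16.3%, in that order. The most abundant, *Vav2*, an exchange factor found in most tissues, had 53.3, 58.5 and 52.5 CPM in the livers labelled WT and 46.9, 47.6 and 53.2 CPM in those labelled *Themis*-KO (log2 fold change -0.15, adjusted p = 0.272), and *Sos2* had a log2 fold change of 0.11 (adjusted p = 0.577). *Plcg2*, the phospholipase of B and myeloid cells, was singled out after its values were seen: its log2 fold change of 0.92 ± 0.24 (SE) lay just outside the threshold (adjusted p = 0.0517, edgeR), with 2.61 to 4.73 CPM in the livers labelled WT and 5.90 to 8.19 CPM in those labelled *Themis*-KO.

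Of 13 adaptors that bind GRB2 or act beside it, 2 were called higher and none lower, with a median log2 fold change of 0.27. The shares of all tested genes were 4.97% called higher and 4.14% lower, so 2 calls among 13 genes are few to read. *Nck2*, an SH2 and SH3 adaptor that links receptors to actin, measured 4.58, 4.51 and 5.40 CPM in the livers labelled WT and 10.8, 9.15 and 8.26 CPM in those labelled *Themis*-KO (log2 fold change 0.96, adjusted p = 0.0217, edgeR). *Cblb*, a ubiquitin ligase that restrains antigen receptor signalling, measured 8.16, 8.06 and 10.4 CPM in the livers labelled WT and 18.2, 16.0 and 12.0 CPM in those labelled *Themis*-KO (log2 fold change 0.79, adjusted p = 0.0407, edgeR). Neither gene overlapped between the groups.

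Of 12 tested receptors that dock SHP1 or SHP2, 3 were called higher and 1 lower, with a median log2 fold change of 0.66. Of all tested genes, 4.97% were called higher and 4.14% lower, with a median of 0.01. *Sirpa*, an inhibitory receptor of myeloid cells, measured 36.9, 47.2 and 57.6 CPM in the livers labelled WT and 82.7, 82.4 and 75.7 CPM in those labelled *Themis*-KO (log2 fold change 0.76, adjusted p = 0.0313, edgeR). *Cd72*, an inhibitory receptor of B cells and some macrophages, and *Clec12a*, an inhibitory lectin of myeloid cells, had log2 fold changes of 1.12 and 0.88 (adjusted p = 0.0304 for each, edgeR). All 3 were higher in every liver labelled *Themis*-KO than in any labelled WT.

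The receptor that fell was *Ceacam1*, an adhesion receptor of hepatocytes and other cells that promotes insulin clearance. It measured 157.5, 149.6 and 143.2 CPM in the livers labelled WT and 105.7, 109.8 and 121.7 CPM in those labelled *Themis*-KO. The groups did not overlap, with a log2 fold change of -0.42 ± 0.09 (SE) and an adjusted p = 0.0351 by edgeR.

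Of 21 genes of the RAS to ERK cascade, 2 were called higher and none lower, with a median log2 fold change of 0.165. These 2 calls are near the 9.11% of all tested genes called in either direction. *Rras*, a RAS-related GTPase, measured 17.7, 19.0 and 21.7 CPM in the livers labelled WT and 24.8, 26.8 and 28.7 CPM in those labelled *Themis*-KO, and *Mapk3*, which encodes ERK1, measured 38.6, 44.4 and 40.0 CPM against 56.5, 49.2 and 57.1 CPM. Their log2 fold changes were 0.46 and 0.40 (adjusted p = 0.0426 for each, edgeR). With upper quartile scaling both were just outside the threshold (adjusted p = 0.0516 and 0.051, edgeR). These are transcript levels, and RNA libraries do not measure phosphorylation.

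Proximal signalling genes were counted separately for T cells and for B and myeloid cells. Of 10 tested genes of T cell receptor signalling, none was called by edgeR's quasi-likelihood test, while 3 with higher and 1 with lower means had an unadjusted p under 0.05, and DESeq2 called 3 as higher. Of all tested genes, 30.7% had such an unadjusted p, and DESeq2 called 8.82% as higher. The median log2 fold change was 0.52. The most abundant were *Csk*, the kinase that restrains SRC family kinases, with a log2 fold change of -0.14 (adjusted p = 0.295), and *Ptprc*. Of 11 genes of B cell and myeloid signalling, 2 were called higher, and all 11 had positive log2 fold changes with a median of 0.73. Among all tested genes, edgeR called 4.97% as higher, and 51% had a positive log2 fold change. *Tyrobp*, the DAP12 adaptor of myeloid and natural killer cells, measured 8.53, 10.98 and 16.2 CPM in the livers labelled WT and 21.4, 24.2 and 20.7 CPM in those labelled *Themis*-KO (log2 fold change 0.89, adjusted p = 0.0444, edgeR). *Lat2*, a linker of the same cells, had a log2 fold change of 1.13 on 21 to 60 counts per liver (adjusted p = 0.0420, edgeR). Whether the 2 lists differ was not tested.

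Each of the 10 pathway genes called was retained in 1 or 2 of the 6 fits that left out a liver, and in none of the fits with the mitochondrial type as a covariate, in which 3 of all tested genes were called. The fit with the covariate has WT replicate 3 as its only WT liver of the shared type, so few calls could remain in it for any list. Leaving out replicate 1 or 2 of either group left no called gene in these 6 lists.

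The genes whose levels were most like those of *Themis* over the 6 livers, by Pearson's r of log2 CPM, were *Ugt2b5* (r = 0.988), *Cacng7* (0.986), *Rpap3* (0.984), *Gm4129* (0.980) and *Abhd3* (0.976). *Ugt2b5*, a hepatic enzyme of glucuronidation, measured 453, 624 and 509 CPM in the livers labelled WT and 482, 460 and 501 CPM in those labelled *Themis*-KO, highest in WT replicate 2 as *Themis* was. Those of *Themis2* were *Ifi27l2b* (r = 0.997), *Gm13056* (0.997), *Plvap* (0.996), *Galnt3* (0.994) and *Plekha2* (0.993). *Plvap*, an endothelial diaphragm protein, measured 53.5, 63.5 and 65.6 CPM in the livers labelled WT and 83.5, 83.4 and 85.0 CPM in those labelled *Themis*-KO. Over these 6 points, r exceeded 0.9 with *Themis* for 104 genes and with *Themis2* for 718.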

How the data were processed

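Poly(A) RNA of 6 mouse livers was sequenced as paired-end reads. Per the submitters' processing notes and the study's methods, the authors trimmed reads with cutadapt 2.3, aligned them to GRCm38 with STAR 2.7.8a and quantified genes with RSEM 1.3.3. The authors deposited the resulting estimated counts per gene, unnormalized and already whole numbers. The annotation release and strandedness are not given in the sources used here.

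The 8 genes were found by symbol. Counts were fitted over all genes with edgeR 4.0.16 in R 4.3.3 (TMM scaling, filterByExpr, quasi-likelihood test), with Benjamini-Hochberg adjustment over 14496 genes and a threshold of 0.05. Values are CPM of the TMM-scaled libraries. The study itself used DESeq2, run here (1.42.0) as an alternative. Ratios were tested by exact permutation over livers. Exon lengths and positions came from GENCODE vM21 (GRCm38), which matched 25321 of 25403 identifiers and may not be the release the authors used. Promoters came from RefSeq (GRCm38.p6), which held all 8 genes in 10 windows. Total counts were 20679642 to 25649767 per liver, and no 2 livers of a group held the same library, since chi-square per degree of freedom was 9.12 or more.

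The members, lists and tests were chosen with earlier results of these data known. The text names all 8 genes, the genes called in each pathway list (up to 4), the 2 most abundant where fewer than 2 were called, and the 5 genes most like *Themis* and *Themis2*. Same-numbered WT and *Themis*-KO livers did not deviate together, so the main fit had no replicate block. The paper speaks of pairs of livers without saying which belong together, and a fit with the block is given as an alternative. The script was tested on simulated data.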

Additional observations from a re-analysis of the deposited data

How the results depend on the processing

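Of the 8 genes, each kept the sign of its log2 fold change in all 14 alternative fits. *Themis* was called in none of them (log2 fold change -1.10 to -0.20, adjusted p 0.0947 to 0.773), nor were *Grb2*, *Ptpn6* and *Sos1*. *Vav1* passed the threshold when scaled by total counts alone (log2 fold change 0.88, adjusted p = 0.0496 by edgeR), with no filter on low counts (0.74, 0.0239) and with DESeq2 (0.74, 0.0150). *Themis2* lost its call with a replicate block (0.63, adjusted p = 0.112 by edgeR) and with the mitochondrial type as a covariate (0.49, 0.486; chosen after seeing the data). With 1 liver left out, the log2 fold change ranged from 0.49 to 0.69 for *Themis2*, 0.61 to 1.03 for *Vav1*, 0.15 to 0.29 for *Ptpn11* and -0.46 to -0.23 for *Plcg1*, and the difference in the *Ptpn6* to *Ptpn11* ratio from -0.0136 to 0.12. Of the 8 genes, 2 were called higher with total counts alone, with no filter and with DESeq2, 3 at an unadjusted p, 0 with the block, with the covariate and with a further 2-fold minimum, and 0 to 3 with 1 liver left out; 1 was called lower at an unadjusted p, and 0 to 1 with 1 liver left out. The causes were not tested, and the fit with the covariate compares WT replicate 3 alone with the livers labelled *Themis*-KO.

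Over the 6 pathway lists, 9 genes were called higher and 1 lower. The higher calls were 7 with upper quartile scaling, where the RAS to ERK list had 0 in place of 2, 21 with total counts alone, 19 with no filter, 20 with DESeq2, 0 with the block, 0 with the covariate and 0 to 29 with 1 liver left out. The lower calls were 0 with total counts alone, the block or the covariate, and 0 to 3 with 1 liver left out. Over all genes, edgeR called 1321, against 62 with the block, 3 with the covariate, 1834 with total counts alone, 2179 with no filter, 2369 with DESeq2, 20 without *Themis*-KO replicate 1 and 4267 without *Themis*-KO replicate 3. Total counts alone moved the median log2 fold change from 0.01 to 0.15, and the share of calls that were higher from 54.6% to 78.9%. Same-numbered livers correlated at 0.000277, -0.241 and -0.157 in their deviations from the group means. With 3 livers per group these values cannot exclude pairing. The paper speaks of pairs of livers, but whether the replicate numbers mark them is not given in the sources used here. Whether the block compares pairs is therefore not known.

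With the length of the longest coding transcript in place of merged exons, the mean level in CPM per kb (WT, then *Themis*-KO) was 2.99 and 1.73 for *Themis*, 15.4 and 18.6 for *Ptpn6*, 15.2 and 17.7 for *Ptpn11*, 3.95 and 3.56 for *Sos1*, and 13.9 and 11 for *Plcg1*; in the livers labelled *Themis*-KO it was 20.9 for *Grb2* and 3.89 for *Vav1*. By total counts alone *Themis2* stood at 4.16 CPM per kb there. With 118 to 293 counts per liver for *Vav1* and 140 to 289 for *Themis2*, the depth and the 3 livers per group limit the precision to the printed intervals.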

Other observations

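The genes beside *Themis* on chromosome 10 were looked at as well. Of 36 annotated genes within 1 Mb of *Themis*, 14 were in the count table and 7 had enough counts to be tested. None was called by edgeR's quasi-likelihood test, 2 had an unadjusted p under 0.05 and DESeq2 called 1 as lower. The shares of all tested genes were 9.11%, 30.7% and 7.52%, in that order. The median log2 fold change of the 7 genes was 0.04. The nearest coding gene before *Themis*, *Ptprk*, a receptor tyrosine phosphatase that ends 70963 bases upstream, measured 51.1, 48.2 and 52.1 CPM in the livers labelled WT and 64.3, 61.4 and 52.4 CPM in those labelled *Themis*-KO (log2 fold change 0.23, adjusted p = 0.153, edgeR). *Echdc1*, which begins 429348 bases after *Themis* and encodes an enzyme that clears ethylmalonyl-CoA, measured 133, 126 and 128 CPM in the livers labelled WT and 88.0, 88.0 and 119 CPM in those labelled *Themis*-KO (log2 fold change -0.40, adjusted p = 0.0855, edgeR). The groups did not overlap for either gene, and both were singled out after their values were seen.

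*Themis* and *Plcg1* varied together over the 6 livers (Pearson's r = 0.862 of log2 CPM), and *Themis* and *Grb2* in opposite directions (r = -0.818). Both values rest on livers that share the 2 groups, and WT replicate 2 was highest for *Themis* and *Plcg1* and lowest for *Grb2*.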
